A study of Mus musculus with 2 samples.

Results

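The cells described here are 59 unlabelled cytotoxic lymphocytes found in the control library of a sort for aortic smooth muscle cells. They were chosen from the counts by a fixed rule: at least 500 genes detected, at most 10% of UMIs from mitochondrial genes, at most 2 UMIs of the reporter eGFP, at least 3 UMIs of Gzma, Nkg7 and Ccl5 together, fewer than 3 of Cd79a, Cd79b and Ms4a1 together, genes of B cells, and fewer than 20 of the class II genes H2-Aa, H2-Ab1, H2-Eb1 and Cd74 together. A UMI (unique molecular identifier) marks 1 captured RNA molecule. The rule took 59 of 2042 control cells that passed the gene and mitochondrial limits, a share of 2.89% (exact binomial 95% interval 2.21 to 3.71%), and 59 of the 4192 cells of both libraries. The same terms took 0 of 1936 cells of the KO library, which allows a share of up to 0.155%, taking 3 counts as the limit of a count of 0. The rule takes only cells with at most 2 eGFP UMIs, of which the KO library had 13 and the control library 341. Members were 17.3% of those 341, and 13 cells are too few to compare this share.

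The study compared thoracic aortas of male C57BL/6 mice aged 24 weeks, with 1 library for each genotype. Control mice had Myh11-CreERT2, in which a recombinase that tamoxifen switches on is driven by the promoter of smooth muscle myosin heavy chain, and the mT/mG reporter, which replaces membrane tdTomato by membrane eGFP in a recombined cell. They were labelled Tsc1+/+. KO mice were labelled Tsc1-/- and carried Tsc1fl/fl, Myh11-CreERT2 and mT/mG. Both received tamoxifen at an age of 1.5 weeks, and viable GFP-positive cells were sorted from digested aortas. The number of mice behind each library was not given in the sources used here. With 1 library for each genotype there is no replicate check and no test, and genotype, animals and sort cannot be told apart. Intervals are 95% and cover counting error only.

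The sex-linked transcripts of the members differ from those of the labelled cells. The library is labelled male, yet the members had 148 UMIs of Xist, the RNA that silences an X chromosome in female cells, in 47 of 59 cells, with 0, 2 and 19 as the lowest, median and highest count per cell. Of the Y chromosome genes Uty, Kdm5d, Eif2s3y and Ddx3y they had 0 UMIs. The 1701 cells of the same library with at least 3 eGFP UMIs, called labelled cells below, had the reverse: 5 UMIs of Xist, 2010 of Ddx3y, 957 of Eif2s3y, 107 of Kdm5d and 211 of Uty. The same split held for the other unlabelled populations, with 482 Xist UMIs and no Y-linked UMI in 82 B cells. Members also had 0 UMIs of eGFP, of which the rule allows at most 2, while tdTomato had 0 UMIs in every population, labelled cells included, and so says nothing of the members. Every result below rests on cells whose sex-linked transcripts go against the label, and the cause was not tested. Members had 24 UMIs of 10 smooth muscle markers in all, in 20 cells, which is 132 CPM (the UMIs of all cells summed per gene and scaled to a common total) against 56092 CPM in labelled cells, and their part in the results was not tested. The matrices of both libraries share 16 cell barcodes, and 0 of these are members.

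Natural killer (NK) cells are innate lymphocytes that kill target cells by releasing granules of perforin and granzymes. They read their targets through a mix of activating and inhibitory receptors, many of them lectin-like proteins encoded side by side in the NK gene complex, and they lack the rearranged antigen receptor and CD3 complex that define T cells. Cytotoxic T cells share the granule and chemokine genes, so the receptor genes separate the 2 kinds of cell. In mice, NK cells need the T-box factors Eomes and T-bet, while group 1 innate lymphoid cells (ILC1), their close relatives in tissues, usually lack Eomes.

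Depth was low and even among the members, at 2291, 2814 and 5616 UMIs per cell (lowest, median, highest) and 818, 1038 and 1955 genes. The 59 cells gave 181204 UMIs in sum, so 3 counts, the limit used here for a count of 0, equal 16.6 CPM. They were compared with 3 other unlabelled populations of the library, each cut by marker sums: 82 B cells (median 3711.5 UMIs per cell), 84 class II high cells (4294.5) and 95 monocytes and macrophages (4414), the last of which also held neutrophil transcripts. Labelled cells were deeper, with a median of 11643 UMIs. A gene was called higher or lower at a CPM ratio of at least 2 or at most 0.5, with at least 50 CPM in 1 of the populations compared. Where the lower population had fewer than 3 counts, 3 counts stood in for them.

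The 3 cytotoxic genes of the rule chose the cells, so their levels are a description. Ccl5, a chemokine, had 5349 UMIs in 58 of 59 cells, Gzma, the granzyme A protease, had 2250 in 54, and Nkg7, a protein of cytotoxic granules, had 819 in 57. Their lowest, median and highest counts per cell were 0, 93 and 248 for Ccl5, 0, 37 and 87 for Gzma, and 0, 14 and 38 for Nkg7. Together they made 3, 150 and 307 UMIs per cell. The cut at 3 UMIs was not crossed by a dense group: the lowest members had sums of 3, 3, 4 and 36, and just outside it 45 unlabelled cells that met the other terms had 1 or 2 UMIs and 71 had 0. The class II term left out 19 unlabelled cells with sums of 3 to 21 and the B cell term left out 2, with 3 and 67. In the plot of UMIs per cell, most members form 1 band and 6 stand apart.

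**Figure D1:**
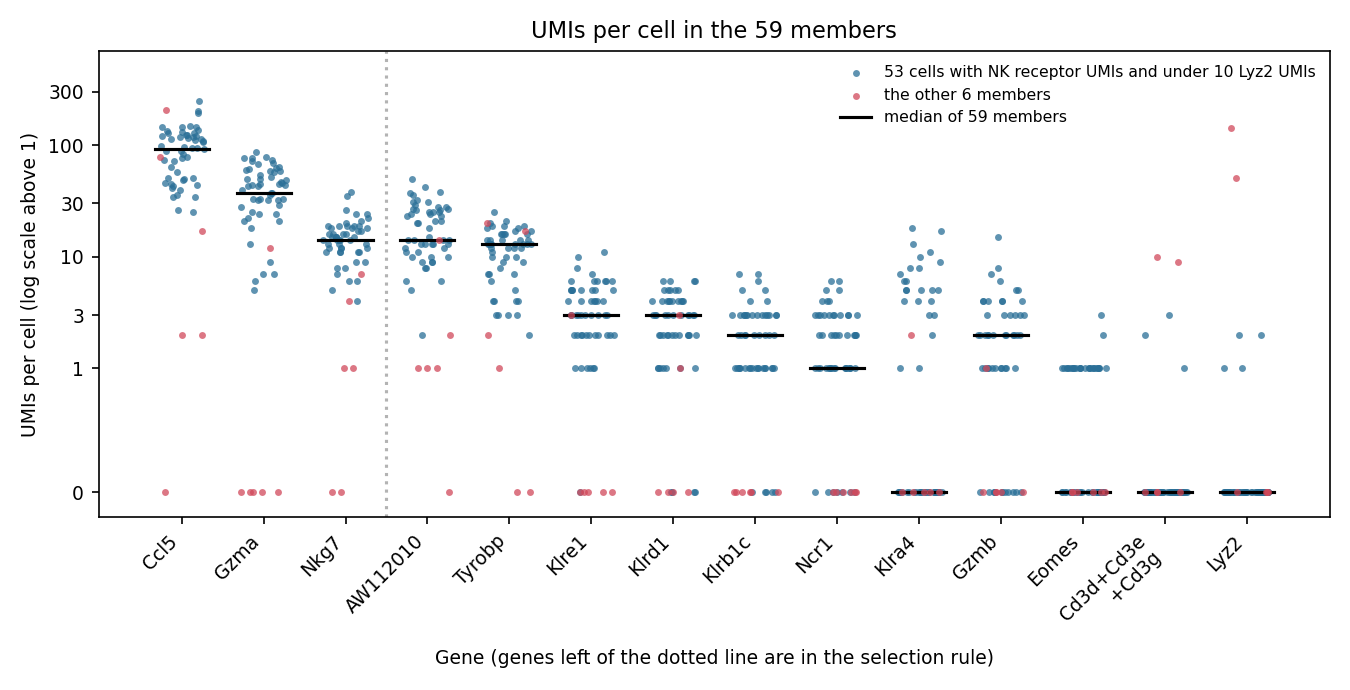
UMIs per cell (vertical axis, log scale above 1) of 13 genes and of the summed Cd3 genes in the 59 members, with a bar at the median. Blue points are 53 cells with at least 1 UMI of Ncr1, Klrb1c or Klre1 and under 10 Lyz2 UMIs, and red points are the other 6, which hold the high Cd3 and Lyz2 counts. The Ccl5 median is 93 and the Ncr1 median is 1.

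Receptors that the rule did not use were those of NK cells. Klre1, an NK receptor of the lectin family, had 201 UMIs in 53 of 59 cells. Klrb1c (NK1.1) had 116 in 48 cells, and Ncr1 (NKp46), a receptor that marks NK cells across mammals, had 106 in 46. The share of cells with an Ncr1 UMI was 78.0% in members and 1.22% (1 of 82) in B cells, although B cells were deeper, and it was 49.2% after every member was thinned to 1500 UMIs, which left out 0 cells, with B cells at 1.22%. Per CPM, Klre1 stood at 1109 in members and at 18.0 in B cells, a ratio of 61.6 (27.8 to 170). Klrb1c was 53.4 times (20.3 to 199) its level in B cells. For Ncr1, with 1, 0 and 1 UMIs in B cells, class II high cells and monocytes and macrophages, the lowest of the ratios, against 3 counts, was 65.0. Of the other markers in the description of these cells, Klra4 had 162 UMIs in 25 cells and 0 in each of the 3 comparison populations, at least 99.3-fold higher, and AW112010, a transcript induced by interferon, had 1050 UMIs in 58 cells and was 35.8 times (27.2 to 47.9) its level in B cells.

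All 7 NK cell markers, Ncr1, Klrb1c, Klre1, Klra4, Klra8, Klrd1 and Eomes, were above 50 CPM in the members. T cell markers were found in few cells: Cd3g had 14 UMIs in 4 cells, Cd3d 10 in 3, Cd8b1 6 in 1, Cd3e and Cd8a 1 each, and Cd4 0. At the same limit of 50 CPM, Cd3g (77.3 CPM) and Cd3d (55.2 CPM) also passed. Of the T lineage list of 23 genes, 16 are in the matrix, and they made 66 UMIs in 25 members. Only 3 of them were tested, and all 3 were higher than in the other populations: Cd3d, Cd3g and Lat, an adaptor of T cell and NK cell receptors with 13 UMIs in 12 cells. All 3 reached 50 CPM in members. The whole list made 6.00 CPM in B cells, 61.8 in class II high cells and 7.19 in monocytes and macrophages, so being tested nearly set these calls. Among ILC1 markers, Itga1, Cxcr6 and Cd200r1 had 0 UMIs, Tnfsf10 had 1, and Il7r had 4, all in 1 cell. The wider ILC1 and residency list of 14 genes made 144 UMIs in 44 members, most of them Rgs2 (66), Rgs1 (48) and Tmem176b (18), and none of its 5 tested genes was higher. At this depth a count of 0 limits a gene to 16.6 CPM, so low expression of these markers cannot be told from none.

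Cutting each member by its receptors placed 52 of 59 cells, 88.1% (77.1 to 95.1%), in an NK receptor class, with at most 1 UMI of Cd3d, Cd3e and Cd3g and at least 1 of Ncr1, Klrb1c and Klre1. The same cut took 4.88% of B cells, 8.33% of class II high cells, 3.16% of monocytes and macrophages and 0.353% of labelled cells, which is the background for this cut. A Cd3 class, with at least 2 UMIs, held 4 members, 6.78% (1.88 to 16.5%), and 3 members fell in neither. Thinned to 1500 UMIs the classes held 52, 3 and 4 cells, and thinned to 1000 UMIs 49, 3 and 7.

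The 4 cells of the Cd3 class were not alike. In 2 of them no NK receptor was found and the Cd3 sums were 10 and 9, with rule sums of only 3 and 4 UMIs. The latter cell also had 6 UMIs of Cd8b1 and 1 of Cd8a, which encode the CD8 coreceptor, and 2 each of Lef1 and Ccr7, genes of naive and resting T cells. The other 2 carried NK receptors beside 2 and 3 UMIs of Cd3g. Between the Cd3 class and the NK receptor class, Cd3g had 14 against 0 UMIs, Cd3d 9 against 1 and Cd8b1 6 against 0. Fcer1g, the signalling chain of Fc and NK receptors, had 9 against 439, a CPM ratio of 0.260 (0.118 to 0.497), and these classes were cut from the same counts. In the plot of Cd3 against NK receptor UMIs, the 8 unlabelled cells with at least 2 Cd3 UMIs that lie outside all 4 populations have 5 to 15 Cd3 UMIs and 0 NK receptor UMIs.

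**Figure D2:**
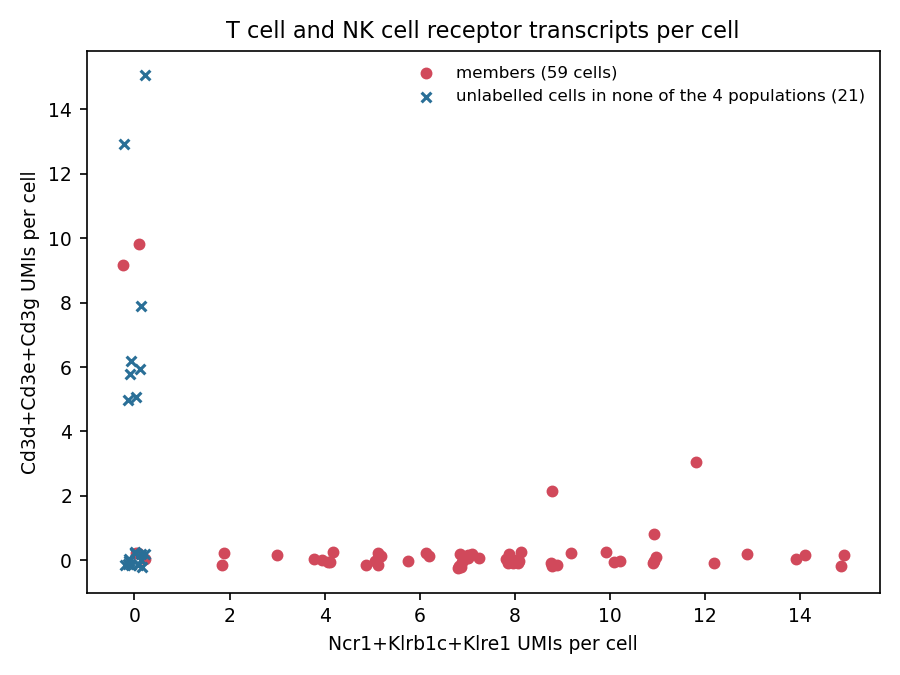
Summed UMIs of Ncr1, Klrb1c and Klre1 (horizontal) against summed UMIs of Cd3d, Cd3e and Cd3g (vertical) in each cell, with a small random shift so that points do not hide each other. Red circles are the 59 members and blue crosses the 21 unlabelled cells of no population. Both axes are filled, but only 2 members carry NK receptor counts and at least 2 Cd3 UMIs together.

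Chosen after the cells were seen, 53 members had at least 1 UMI of Ncr1, Klrb1c or Klre1 and under 10 UMIs of Lyz2, a lysozyme gene of myeloid cells. Their rule sums ran from 50 to 307. The other 6 were the 2 Cd3 cells without NK receptors, 1 cell with 143 Lyz2 and 42 Plac8 UMIs and a rule sum of 3, 1 cell with 51 Lyz2, 12 Gzma, 3 Klre1 and 2 Klra4 UMIs, and 2 cells with 79 and 205 Ccl5 UMIs and 0 of Gzma and Nkg7. These last 2 had 5 and 11 UMIs of Ccr7 and 15 and 3 of Fscn1, genes known from migrating dendritic cells. Monocyte and macrophage markers made 297 UMIs in 21 members, of which Lyz2 gave 200 in 6 cells, while Adgre1, C1qb, C1qc, Mrc1, Fcgr1, Ms4a7 and Lyz1 were at 0. B cell markers made 2 UMIs, with 8 of 10 genes at 0, and platelet and erythroid markers made 0. The rule itself limits Cd79a, Cd79b and Ms4a1, so the low B cell count partly follows from how the cells were chosen.

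Against all 3 other unlabelled populations at once, 250 of 3101 genes tested were higher in members, a background of 8.06%, and 80 were lower, 2.58%. Against B cells alone 29.2% of 2475 genes were higher and 10.7% lower, against class II high cells 18.3% and 16.6% of 2651, and against monocytes and macrophages 20% and 21.7% of 2755. The median log2 ratio over the genes tested was 0.52, 0.16 and 0.12 in that order. Over genes at 50 CPM in both populations of a pair the medians were 0.37, 0.13 and 0.13, so the ratios of members lean upwards by that amount. Divided by this shift, 192 genes were higher and 99 lower. Without the 6 cells that stood apart, 304 genes were higher, 238 of them shared with the 250, and 105 were lower.

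The 20 genes with the largest lowest ratio to the 3 populations were Nkg7, Gzma, Klra4, Gzmb, Ncr1, Klre1, Ccl5, Txk, Klrb1c, Klra9, Klra7, Ctsw, Cma1, Ms4a4b, Xcl1, AW112010, Klrg1, Il2rb, Ctla2a and Cst7. Nkg7, Gzma and Ccl5 are genes of the rule, so their places follow from how the cells were chosen. Cma1, a chymase best known from mast cells, had 63 UMIs in 29 members, while mast cell and basophil markers made 1 UMI in all. The 5 genes with most UMIs were Malat1, Ccl5, Tmsb4x, Gzma and Rpl13a. At the other end were Ly86, Napsa, Rgs10, Unc93b1, Ctsz, H2-DMa, Rnase6, Plac8, Pou2f2 and Irf5, genes shared by B cells and myeloid cells. These low ratios depend on where the rule is cut, and with at least 2 UMIs of the rule genes in place of 3 the highest ratio was 0.139 for Ly86, 0.420 for Plac8, 0.169 for Napsa, 0.453 for Rnase6 and 0.354 for Pou2f2. Ly86, partner of a toll-like receptor homologue, had 3 UMIs in members, all in 1 cell, and was at most 0.0521 (0.0106 to 0.156) of its level elsewhere. Plac8 was at most 0.154 (0.122 to 0.192) of its level elsewhere, without the 6 cells that stood apart at most 0.0269, and at a rule sum of at least 10 UMIs at most 0.0812. H2-DMa, which loads class II molecules, had 6 UMIs and a highest ratio of 0.126.

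Upstream sequence was read for the genes called higher. Motifs were searched on both strands in the 250 bases before each RefSeq start (GRCm38.p6): GGTGTGA for T-box factors, CAGGAAG for ETS factors and TGTGGTT for RUNX factors. No motif contains another. Of the 250 genes higher in members 189 had a window. The T-box letters were found in 3.70% of them against 3.84% of all genes with a window, the ETS letters in 20.1% against 12.1%, and the RUNX letters in 8.47% against 5.08%. Over all 32851 windows the shares were 3.33, 10.8 and 4.40%. A match is a description of letters, not a site. Of the 20 genes above, 16 had a window, of which 9 held a match of any of the motifs, 6 a RUNX match, 4 an ETS match and 2 a T-box match, and 7 held none. The share of all genes with a match of any of the motifs was not computed, so 9 of 16 has no background. Some of these genes had 2 windows, which gives more room for a match. The windows of both granzyme genes and of Ncr1 are shown as examples and were chosen for their RUNX match, in capitals. Gzma is on the minus strand at chr13:113100982-113101231 with the match from position -51, Gzmb on the minus strand at chr14:56262335-56262584 from -34, and Ncr1 on the plus strand at chr7:4337474-4337723 from -185. Letters run 5′ to 3′, and -1 is the base before the start.
Gzma: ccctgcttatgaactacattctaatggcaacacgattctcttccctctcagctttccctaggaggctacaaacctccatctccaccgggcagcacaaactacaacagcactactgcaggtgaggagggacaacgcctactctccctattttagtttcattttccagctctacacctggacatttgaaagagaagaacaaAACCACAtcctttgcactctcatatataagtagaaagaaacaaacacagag
Gzmb: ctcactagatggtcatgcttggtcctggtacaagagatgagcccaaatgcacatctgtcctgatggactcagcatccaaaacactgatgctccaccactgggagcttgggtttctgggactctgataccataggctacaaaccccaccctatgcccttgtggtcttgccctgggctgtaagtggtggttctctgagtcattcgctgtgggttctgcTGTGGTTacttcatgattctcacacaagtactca
Ncr1: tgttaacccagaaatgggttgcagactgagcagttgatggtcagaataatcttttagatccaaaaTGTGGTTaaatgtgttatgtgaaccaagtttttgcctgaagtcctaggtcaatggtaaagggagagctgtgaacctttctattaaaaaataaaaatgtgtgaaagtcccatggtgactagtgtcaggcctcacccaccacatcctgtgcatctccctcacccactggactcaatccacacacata

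A list of 12 NK receptor genes was labelled activating, but its genes, Klre1 among them, were not sorted by signal. Of these, 9 were tested and 5 were higher than in all 3 populations, with none lower: Ncr1, Klrb1c, Klre1, Klrk1 (NKG2D) and Klri2. Without the 6 cells that stood apart the count was 6. Klrk1 had 139 UMIs in 49 cells, and its lowest ratio was 10.6 (6.96 to 16.6), against class II high cells. Not called were Cd244, at 1.99 times its level in class II high cells, Slamf7, at 0.951 times, Cd2, at 1.46 times its level in B cells, and the Fc receptor gene Fcgr3, which was lower than in monocytes and macrophages at a ratio of 0.165 (0.0905 to 0.278). Median log2 ratios of the tested genes were 4.65, 4.81 and 5.09 against B cells, class II high cells and monocytes and macrophages.

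The adaptors through which such receptors signal were split. Hcst (DAP10), partner of NKG2D, had 136 UMIs in 51 cells and was 5.50 times (4.01 to 7.63) its level in monocytes and macrophages. Cd247, the CD3 zeta chain, had 22 UMIs in 15 cells and at most 2 in any comparison population. Tyrobp (DAP12), also used by myeloid cells, was at 3664 CPM in members, 2753 in class II high cells and 4815 in monocytes and macrophages, and Fcer1g was at 2550, 2011 and 3474. Neither Tyrobp nor Fcer1g was called against those 2 populations, and both were called against B cells.

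Ly49 receptors, encoded by the Klra genes, are known for binding class I molecules of the major histocompatibility complex. The family holds both inhibitory and activating receptors, and the counts below are not sorted by this. Of 11 listed, 7 were tested and 6 were higher than in all 3 populations: Klra4 (162 UMIs in 25 cells), Klra8 (104 in 22), Klra9 (83 in 24), Klra7 (78 in 29), Klra3 (44 in 17) and Klra1 (35 in 13). Klra5 and Klra6 had 4 and 3 UMIs, and Klra2, Klra10 and Klra17 had 0. The 6 higher genes are those of the list that reached 50 CPM in members, so this count is a description. The Klra genes are related copies, so counts may be split or swapped between them.

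The Klra genes found varied between members. Any Klra UMI was found in 54 members, UMIs of at least 2 genes in 39, and the 54 cells showed 34 different combinations. Of these, 24 were seen in 1 cell and 10 were shared by 30 cells. No Klra gene was found in 5 cells, 1 in 15, 2 in 12, 3 in 13, 4 in 13 and 5 in 1. All 53 cells with NK receptors and low Lyz2 had at least 1 Klra gene. Klra4 and Klra7 were found together in 17 cells, Klra4 alone of this pair in 8, Klra7 alone in 12 and neither in 22. At these depths a gene with 0 UMIs in 1 cell may still be transcribed.

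**Figure D3:**
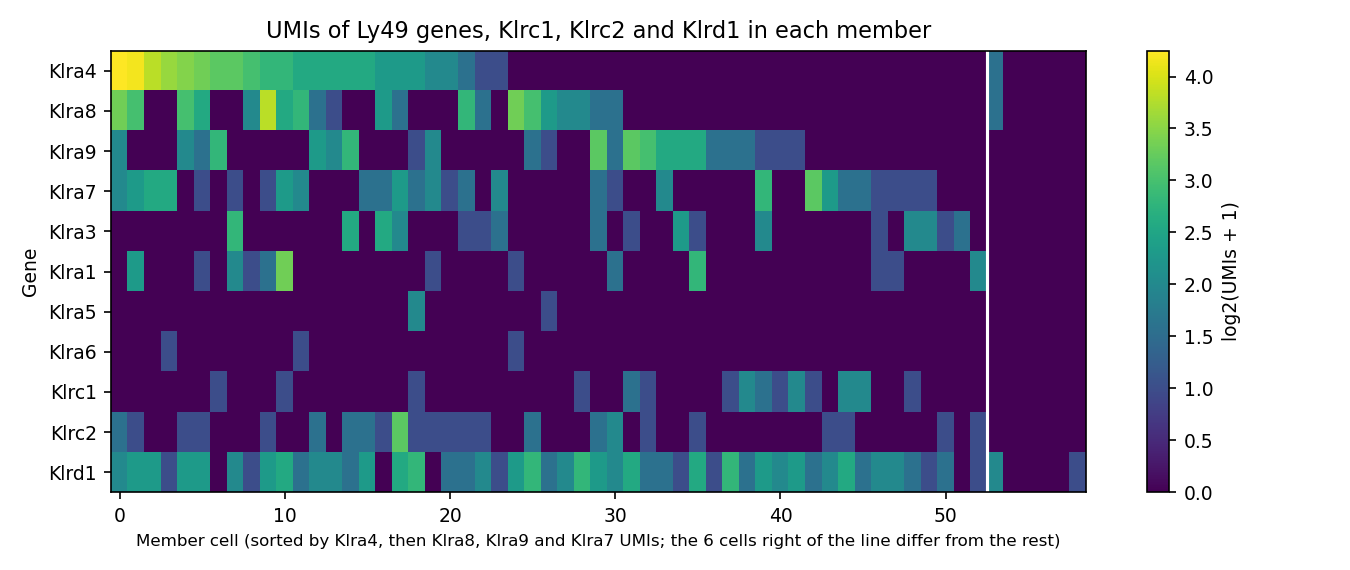
UMIs as log2(UMIs + 1), shown by colour, of 8 Ly49 (Klra) genes, Klrc1, Klrc2 and Klrd1 (rows) in the 59 members (columns), sorted by Klra4, then Klra8, Klra9 and Klra7. The 6 columns right of the white line are the cells that stood apart, and Klra genes are found in 1 of them. The 54 cells with a Klra gene show 34 combinations, 10 of them shared by 30 cells, and Klrd1 runs through most columns.

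All 7 tested genes of the CD94, NKG2 and related lectin receptor list were higher. Klrd1 (CD94), the shared chain of receptors for the class I molecule Qa-1, had 157 UMIs in 51 cells and was 4.81 times (3.59 to 6.50) its level in class II high cells, where 32 of 84 cells had it. Its partners Klrc1 (NKG2A, inhibitory) and Klrc2 (NKG2C, activating) had 25 UMIs in 15 cells and 39 in 24. Klrc1 had 0 UMIs in the 3 comparison populations, at least 15.3-fold higher. Klrg1, an inhibitory receptor of mature cells, had 53 UMIs in 24 cells. The stretch of chromosome 6 from 128609227 to 131247362 (mm10) that spans these receptors has 49 features in the matrix. Of them 22 were tested and 16 were higher in members, beside 8.06% of all genes tested. All 16 are lectin-like receptor genes already counted in the receptor lists, so this is not a separate result. BC035044, Gm15987, 2310001H17Rik, Cd69, Clec12a and Klra2 were tested and not higher.

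Of 14 tested granule genes 10 were higher and none lower, and 11 were higher without the 6 cells that stood apart. Gzma and Nkg7 in this count belong to the rule, and 8 of 12 were higher without them. Gzmb (granzyme B) had 124 UMIs in 42 cells and 0, 1 and 0 UMIs in B cells, class II high cells and monocytes and macrophages, at least 76.0-fold higher than in B cells. The granule cathepsin gene Ctsw had 78 UMIs in 41 cells, and Cst7 (cystatin F), an inhibitor of granule proteases, had 55 in 29. Serpinb9 and Serpinb6b, inhibitors that shield killer cells from their own proteases, had 25 and 43. The death ligand Fasl had 19 in 17 cells and Ctsd, the protease cathepsin D, had 136 in 50, with Ctsd at 4.61 times (3.42 to 6.26) its level in monocytes and macrophages.

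The pore-forming protein perforin, encoded by Prf1, was sparse, with 9 UMIs in 9 cells. At 49.7 CPM it lay just under the 50 CPM minimum and was not tested, though it had 0 UMIs in all 3 other populations and in labelled cells. Its ratio to B cells against 3 counts was 5.52. Srgn, the proteoglycan of granules, was at 0.854 to 1.05 times the level of the others, and Ctsc, which activates granzymes, was lower than in class II high cells at 0.456 (0.236 to 0.823). Gzmk had 1 UMI and Gzmm 4.

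**Figure D4:**
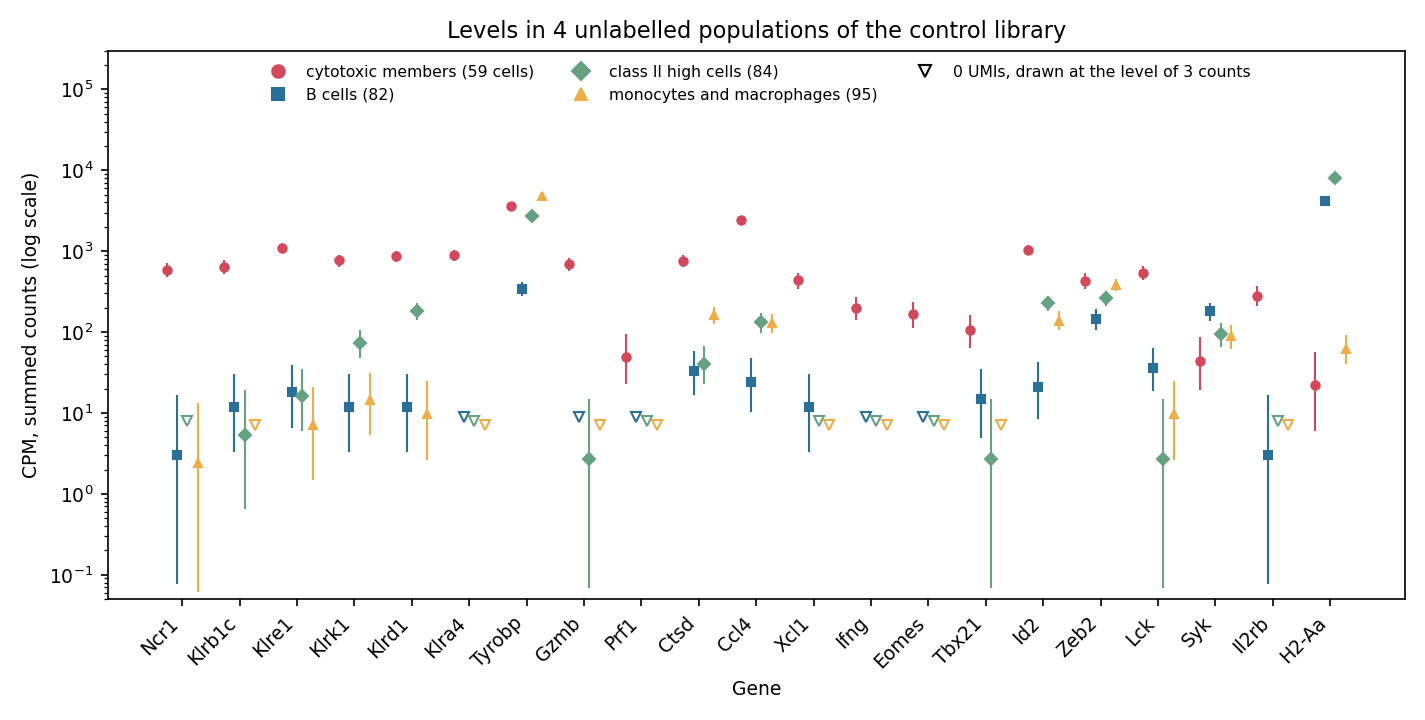
Levels in CPM of summed counts (vertical, log scale) of 21 genes in the 59 members and in 3 other unlabelled populations, with exact Poisson 95% intervals. Open triangles are populations with 0 UMIs, drawn at the level of 3 counts. Receptor, granule and T-box genes are highest in the members, Tyrobp is shared with class II high cells and monocytes and macrophages, and H2-Aa, a gene of the rule, is low in members.

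Chemokine and cytokine genes had 5 of 9 tested members higher and none lower, or 6 without the 6 cells that stood apart, and Ccl5 among them belongs to the rule. Without Ccl5 the count was 4 of 8. Ccl4 and Ccl3, which attract myeloid cells and lymphocytes, had 443 and 321 UMIs, each in 48 cells. Ccl4 was 18.6 times (13.8 to 25.5) its level in class II high cells and Ccl3 7.32 times (5.84 to 9.25) its level in monocytes and macrophages. Xcl1 (lymphotactin), the ligand of a receptor on cross-presenting dendritic cells, had 79 UMIs in 22 cells. Ifng had 36 UMIs in 20 cells and 0 in the 3 comparison populations, at least 22.1-fold higher. Csf2, Il10 and Lta had 0 UMIs.

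Of 28 transcription factors and regulators of NK and T cells, 17 were tested and 5 were higher, with none lower. Eomes had 30 UMIs in 27 cells and 0 in the 3 comparison populations, at least 18.4-fold higher. Tbx21, which encodes T-bet, had 19 UMIs in 14 cells and was 6.99 times (2.52 to 24.0) its level in B cells. Id2, an inhibitor of E proteins required by innate lymphocytes, had 186 UMIs in 51 cells, and its ratio to class II high cells was 4.55 (3.50 to 5.95). Txk, a kinase of the Tec family, and Stat4, which relays interleukin 12, were also called. Zeb2, Klf2 and Runx3 were not called against all 3, with lowest ratios of 1.12, 1.25 and 1.37.

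Of the cytokine receptor, JAK and STAT genes, 4 of 10 tested were higher. Il2rb, the shared beta chain for interleukins 2 and 15, had 51 UMIs in 31 cells and 1, 0 and 0 in the comparison populations. The alpha chain genes Il15ra and Il2ra had 0 UMIs in members, and Il2rg had 56 in 39 cells and was not called. The interleukin 18 receptor genes Il18r1 and Il18rap had 13 UMIs each, and the kinase gene Jak1 had 82 in 41 cells, at 4.43 times (2.98 to 6.69) its level in class II high cells.

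Proximal signalling genes went both ways: 6 of 17 tested were higher and 2 lower. Lck, a kinase that starts signalling from receptor tails, had 97 UMIs in 41 cells and was 14.9 times (8.14 to 29.8) its level in B cells. Zap70, the kinase it activates, had 14 UMIs in 13 cells and 0 in the 3 comparison populations and in labelled cells. Fyn, Sh2d1a (the adaptor SAP), Sh2d2a and Dok2 were the other 4. Syk, the sister kinase of Zap70, was called lower at 0.245 (0.101 to 0.515) of its level in B cells, 0.469 (0.188 to 1.03) in class II high cells and 0.498 (0.200 to 1.09) in monocytes and macrophages, and the last 2 intervals hold 1. Ptpn6, which encodes the phosphatase SHP-1 recruited by inhibitory receptors, was lower at ratios of 0.368, 0.415 and 0.324.

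Genes of NK cell maturation varied between members. Among the 53 cells with NK receptors and low Lyz2, Klrg1 or S1pr5, genes of later stages, were found without Cd27 in 24 cells, Cd27, a gene of earlier stages, without them in 6, both in 6 and none in 17. Most of these counts are of few UMIs per cell, and a cell without a UMI may still express the gene. The later group could be met by either of 2 genes, with 53 UMIs of Klrg1 and 22 of S1pr5 in members. Only Cd27, with 16 UMIs, could meet the earlier group, so 24 and 6 cells do not compare the stages. S1pr5, a receptor for sphingosine-1-phosphate needed to leave bone marrow and lymph nodes, had 22 UMIs in 20 cells. In the list 4 of 11 tested genes were higher, Cd27, Klrg1, S1pr5 and Spn. A cell cycle sum of Mki67, Top2a, Birc5 and Stmn1 reached 10 UMIs, a limit set after the values were seen, in 3 members, with sums of 28, 37 and 18. These cells had 4602, 5366 and 4700 UMIs in all against the median of 2814, and depth was not tested as a part of this result.

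In other lists, to be read beside the background of 8.06% higher and 2.58% lower, calls were few or went both ways. None of 5 tested genes of the ILC1 and residency list and none of 15 cytoskeleton genes was higher in all 3 comparisons, and 1 of 13 integrin and adhesion genes was, Itgb1. Of 7 receptors for chemokines and sphingosine lipids, S1pr4 and S1pr5 were higher. Among checkpoint receptors Cd160 was higher, with 23 UMIs in 13 cells, while Pdcd1, Tigit, Havcr2 and Ctla4 had 0. Of 20 genes of dissociation and early response, Dusp2 was higher and Nr4a1 lower. Class I presentation and interferon genes had 3 of 22 higher (H2-Q7, Ms4a4b and AW112010) and 3 lower (Tap1, Ifi27l2a and Ly6e). The plot of lists sets these shares beside the background.

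**Figure D5:**
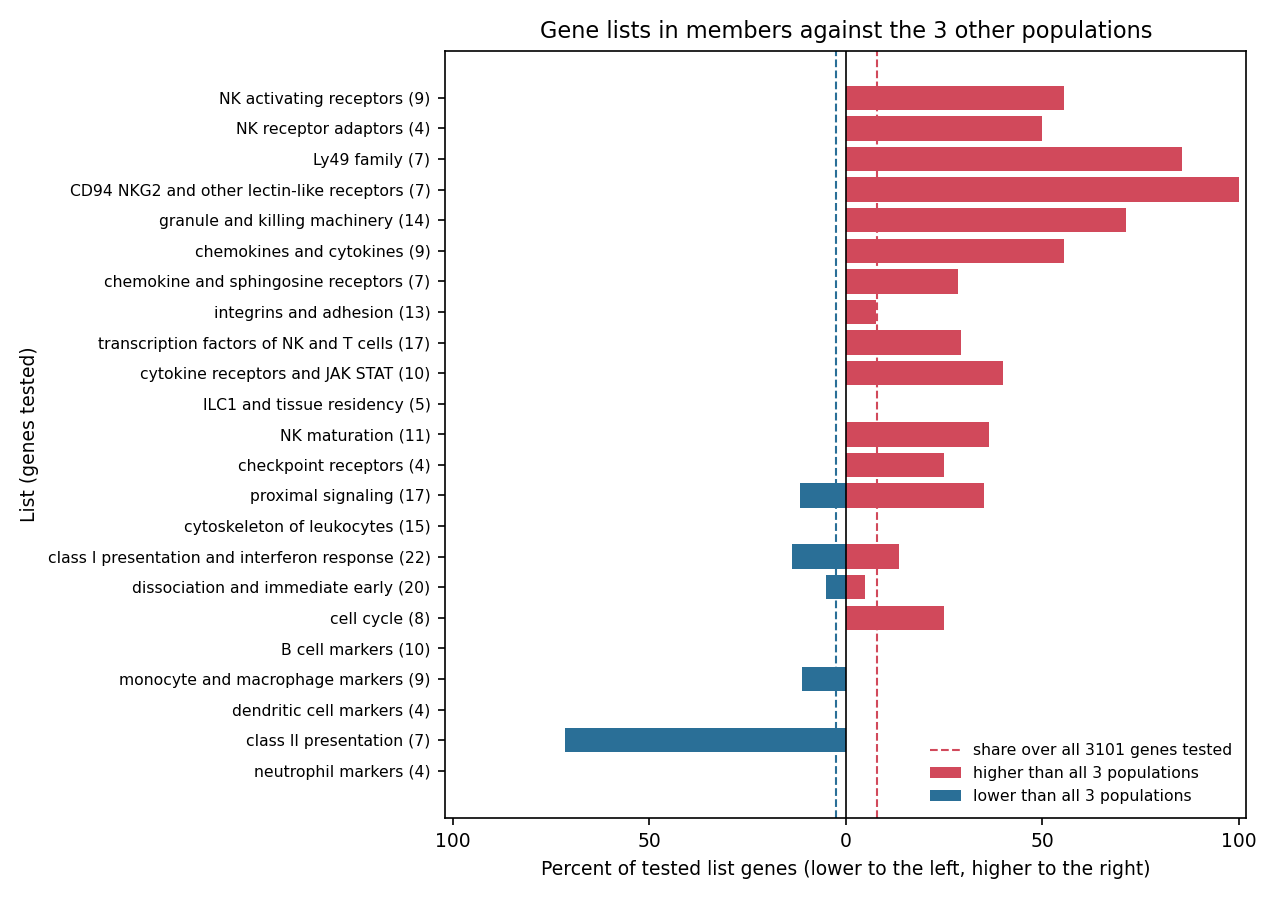
Percent of the tested genes of each list that were higher (red, to the right) or lower (blue, to the left) in members than in all 3 other unlabelled populations, for lists with at least 4 tested genes (number in brackets). Dashed lines are the shares over all 3101 genes tested, 8.06% higher and 2.58% lower. The lectin receptor list reaches 7 of 7, but most of its genes were tested only through their level in members. The class II list has 5 of 7 lower. Of these 5, H2-Aa, H2-Ab1 and Cd74 are in the rule, and H2-DMa and H2-DMb1 are not. The class II high cells were cut by the same class II genes, so much of this bar follows from how cells were chosen.

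In the authors' deposited table of mean values per 10000, which lists 16415 genes in 16 columns of a cluster number and a library, the column for cluster 8 of the control library was highest for Gzma (140), Nkg7 (48.9), Ccl5 (323), Klre1 (12.0), Klra4 (10.2), AW112010 (63.8), Ncr1 (6.67), Gzmb (7.63) and Eomes (1.77). From the counts, members had 124 of 10000 UMIs for Gzma and 11.1 for Klre1. These are shares of summed UMIs, while the authors' values were read as means over the cells of a cluster. Other genes were further apart: Lyz2 was at 11.04 in members and 0.34 in the column for cluster 8. Cd74 was at 1.77 and 0.508 in that order, and Cd8b1 at 0.331 and 0. Which members the authors placed in cluster 8 was not tested. In the authors' deposited table Xist was at 7.83 and eGFP at 0.485 in that column. Cd3d (7.62), Cd3g (6.38) and Cd8b1 (3.93) were highest in the authors' deposited table in cluster 3 of the control library. The KO columns there are of clusters 0 to 4, 6 and 7.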

How the data were processed

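The deposited matrices give UMI counts for each gene and cell of 2 droplet libraries, made by the authors with bcl2fastq, Cell Ranger and Seurat 2.0 on mm10, per the submitters' processing notes. The method for calling cells was not given in the sources used here. A table of the authors' averages holds mean values whose 16 columns each sum to 10000, taken from the values as a linear mean per 10000 in each cluster and library.

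The members, the populations and the 31 gene lists were chosen with earlier results of these data known. The counts of all cells in a population were added up and scaled to CPM (Python 3.11.15, numpy 2.4.6, scipy 1.17.1), with exact Poisson intervals for levels, exact conditional binomial intervals for ratios and Clopper-Pearson intervals for shares. Comparison cells had at most 2 eGFP UMIs and were cut in this order: B cells (Cd79a, Cd79b and Ms4a1 at least 3), class II high (at least 20), members, monocytes and macrophages (Lyz2, Csf1r, Cd68 and Cd14 at least 3). In the calls, a count under 3 in the lower of 2 populations was set to 3, and the ratio then did not pass 1. With 1 library per group no test was made, and UMI totals per cell limit what can be detected. The calls and intervals were tested on simulated Poisson counts. That test does not cover genes whose UMIs are gathered in few cells. Doublets were kept: Scrublet (scanpy 1.11.5) called 1 of 2095 control cells, and no member, so this alternative removes nothing here. Positions are from GENCODE M21 and upstream sequences from RefSeq, build GRCm38.p6.

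Named genes are the markers that describe the cells, the 20 with the largest lowest ratio and the 10 with the smallest highest ratio to the 3 populations (at 50 CPM, without mitochondrial, ribosomal protein and unnamed genes), list genes at 50 CPM or that define a cell type, the genes most different between the Cd3 and NK receptor classes at 100 CPM, the 5 most abundant, sex-linked genes and the transgenes. List genes named with fewer counts, Prf1 among them, the split into 53 and 6 members, the cell cycle limit and the motifs were chosen after values were seen. Of 23 T lineage genes 16 are features of the matrix, and the antigen receptor constant genes are not among them. Alternatives changed the rule, the filters, the CPM minimum, the ratio and the scaling.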

Additional observations from a re-analysis of the deposited data

Results flagged for a closer look

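Transcripts of the rule also appear outside the members. In the control library 3 labelled cells had at least 3 UMIs of Gzma, Nkg7 and Ccl5 together, with sums of 129, 126 and 159, eGFP counts of 44, 44 and 17, Acta2 counts of 306, 221 and 67, and 1, 11 and 8 UMIs of Ncr1, Klrb1c and Klre1. Of the other labelled cells 128 had 1 or 2 UMIs of the rule.

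In the KO library the highest sum was 176 UMIs in a labelled cell and 33 in an unlabelled cell, the latter left out by the B cell term. The 13 unlabelled KO cells held 39 UMIs of the rule genes and the 1923 labelled ones 416, in 136 cells.

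In the control library 8 unlabelled cells outside all 4 populations had at least 2 UMIs of Cd3d, Cd3e and Cd3g, with 64 in sum, 0 UMIs of Ncr1, Klrb1c and Klre1, and 4 UMIs of the rule genes.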

How the results depend on the processing

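The 8 lists followed here, the counts of members, classes and called genes, and 41 named genes were recomputed. No value reversed. Of 122 values other than those of single genes, 112 stayed within 1.5 times the count or within the interval of the share, and 10 moved. This tally and that of the named genes include the doublet alternative, which removed no member and left every value as it was. The limits of 0 eGFP UMIs and of 5% mitochondrial UMIs also left 59 members. Such values could not move and are no sign of stability. With at least 2 UMIs of the rule genes, the NK receptor class fell to 76.5% of members and genes lower than all 3 populations to 42. At least 1000 genes per cell left 39 members. Genes higher than all 3 numbered 608 at a 10 CPM minimum and with no minimum, and 518 at a ratio of 1.5, and genes lower numbered 141 with no minimum, since more genes could be called. The transcription factor list had 8 higher at 10 CPM and with no minimum. Without the 6 members that stood apart, an alternative chosen after seeing the data, the NK receptor class was 96.2%. The split uses the same receptor term as this class, so the rise was fixed in advance. Asking also for an interval that leaves out 1 kept 206 of the 250 higher and 63 of the 80 lower genes. Of 246 values for the named genes, 233 stayed within their counting interval. Of the 14 that moved by over 1.5 times, 9 were of the 10 lowest genes at a rule sum of at least 2 UMIs. The class II limit of 5 UMIs was applied to members only. No paired analysis was possible because each genotype has 1 library. With 181204 UMIs in members, 16.6 CPM is the level of 3 counts, the limit used for a count of 0.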
